A study of Rattus norvegicus with 60 samples.

Results

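Proteasome subunit genes were followed in hippocampal CA1 tissue of rats after contextual threat recognition training. Members were the rows of the deposited RNA table whose gene symbol begins with Psma, Psmb, Psmc, Psmd or Psme and a number and whose mean over all 34 RNA libraries is at least 1 FPKM (fragments scaled to transcript length and library size), 1 row per symbol. This gave 42 of the 22865 genes. The name pattern matched 47 rows with 45 symbols. The rule itself used no measured difference between groups, though it was set with earlier results of these data known. All animals were Sprague-Dawley rats aged 90 to 120 d. The RNA groups were threat 24 h (n = 6), threat 1 h (n = 8), place 24 h (n = 5), place 1 h (n = 6) and naive (n = 9). No time is given for the naive RNA libraries, and the labels do not say what place animals experienced or that replicates came from separate animals, so a p-value here rests on sample spread that may be technical. Methylated DNA captured with a methyl-binding domain protein was sequenced in a further 26 libraries, with 3 threat, 4 place, 3 naive and 3 uncaptured input libraries at each time.

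The proteasome is the main protease for ubiquitin-tagged proteins in the cytosol and nucleus. Its barrel-shaped core has outer alpha rings that gate entry and inner beta rings that hold the cutting sites, and a regulatory particle of base and lid binds ubiquitin, unfolds the substrate with ATPases and removes the tag. Interferon induces alternative catalytic subunits that take the place of the standard ones and form the immunoproteasome. In hippocampal neurons, protein turnover by the proteasome is known to take part in synaptic plasticity and in the storage of memory.

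Depth and tissue markers bear on all values that follow. Relative depth ran from 0.839 to 1.22 of the median RNA library, and 12472 to 12947 genes per library reached 1 FPKM. CA1 pyramidal cell markers were present in all groups, with a mean log2(FPKM + 1) of 5.03 at the least (naive replicate 4). CA2 and CA3 markers averaged 3.86 in place 1 h replicate 3 and 3.51 and 3.39 in threat 1 h replicates 3 and 6. No 24 h library exceeded 3.26. CA1 markers averaged 5.22, 5.22 and 5.34 in those 1 h libraries. In naive replicate 4, which had the lowest CA1 level, CA2 and CA3 markers averaged 2.90. Whether the dissections differed in purity was not tested. Nor was the part of these marker levels in the differences between times. Threat 1 h replicates 4 and 7 held many choroid plexus transcripts (the highest summed choroid marker level was 6431 FPKM). In the deposited table the naive columns stand in 2 blocks, replicates 5 to 9 ahead of 1 to 4. This is no labelled batch, but the blocks differed in many genes, so results against naive are also given against each block. In bulk tissue, fewer cells of a type and less RNA per cell cannot be told apart.

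All parts of the particle were expressed, and levels differed widely between members. Member means over the 34 libraries ran from 1.96 FPKM (Psmb8) to 105 FPKM (Psmc5) with a median of 35.2, while the 12721 genes with a mean of at least 1 FPKM had a median of 8.25. FPKM is scaled to length, so levels can be set side by side between genes. In the alpha ring, Psma7 had the highest mean at 72.2 FPKM, followed by Psma4 (44.7), Psma5 (41.3), Psma1 (35.9), Psma3l (33.8), Psma6 (27.1), Psma2 (11.1) and Psma3 (9.87). The structural beta subunits averaged 84.3 (Psmb4), 75.9 (Psmb1), 34.8 (Psmb2) and 26.3 FPKM (Psmb3). The standard catalytic subunits averaged 83.2 (Psmb7, trypsin-like), 76.4 (Psmb5, chymotrypsin-like) and 46.3 FPKM (PSMB6, caspase-like). Their inducible counterparts were far lower, at 9.94 (Psmb10), 2.49 (Psmb9) and 1.96 FPKM (Psmb8).

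Among the ATPases of the regulatory base, Psmc5 (105 FPKM) and Psmc1 (74.7) stood above Psmc3 (63.8), Psmc2 (53.9), Psmc4 (24.4) and Psmc6 (21.5). The other base subunits were the ubiquitin receptor Psmd4 (54.0 FPKM) and the large scaffolds Psmd2 (52.5) and Psmd1 (35.6). The lid members were Psmd6 (46.3 FPKM), Psmd7 (45.1), Psmd13 (44.5), Psmd3 (41.6), Psmd12 (37.8), the deubiquitinase Psmd14 (31.0), Psmd8 (22.8) and Psmd11 (18.7). Chaperones that help to assemble the base were lower, with Psmd9 at 17.3, Psmd10 at 10.1 and Psmd5 at 8.93 FPKM. So were the activators that cap the core in place of the regulatory particle, Psme1 (11.9), Psme4 (7.06) and Psme3 (5.77). Psmc3ip (3.63 FPKM) fits the name pattern but encodes a homologous recombination factor and no subunit.

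Just inside the 1 FPKM threshold were Psmb8 (1.96) and Psmb9 (2.49), and just outside it were PSME2 (0.696), the partner of Psme1, and the thymus subunit Psmb11 (0.301). Psma8, an alpha subunit of the testis, averaged 0.00271 FPKM. Several rows are uncertain because near-identical copies can share reads. The row PSMB6 lies on chromosome 2 (115773840 to 115774556, 717 bases), whereas a second row Psmb6 on chromosome 10 averaged 8.39 FPKM and was left out by the rule. RefSeq lists a copy, Psmb6l1, on chromosome 2 with a length of 717 bases. Psma3 and Psma3l are likewise near copies. The Psmd10 row lies on chromosome 3, while RefSeq places Psmd10 on chromosome X. Of 94 RefSeq entries with such names 46 are pseudogenes, and 17 members have at least 1.

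**Figure D1:**
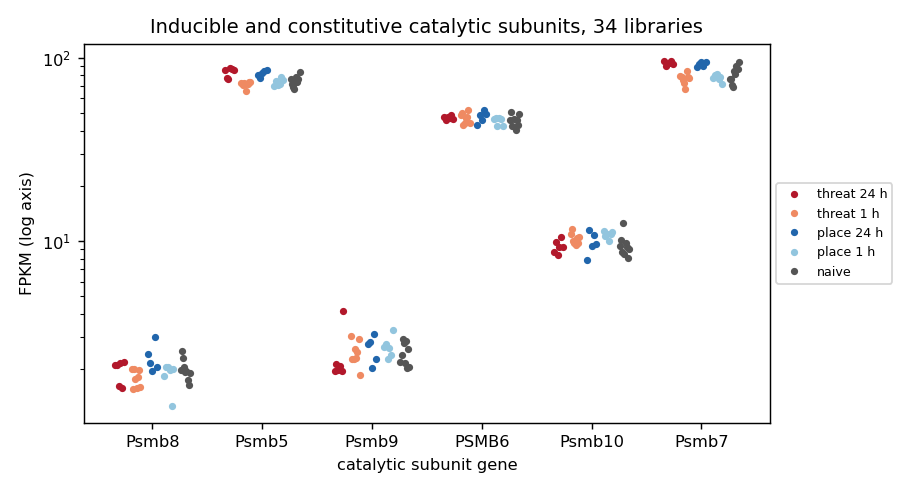
FPKM (log axis) of each inducible catalytic subunit beside its standard counterpart, with 1 point per library and groups by colour. Psmb8 and Psmb9 lie between 1.26 and 4.17 FPKM in all 34 libraries, and their counterparts Psmb5 and PSMB6 lie at 40.3 FPKM or above.

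As a share of summed FPKM, the 42 genes together took 0.608% ± 0.0105 in threat 24 h libraries (SD, n = 6), against 0.567% ± 0.0157 in threat 1 h libraries (n = 8). The share was 0.604% ± 0.0124 in place 24 h libraries (n = 5), against 0.573% ± 0.0112 in place 1 h (n = 6) and 0.581% ± 0.0219 in naive libraries (n = 9). Both sets of 24 h libraries lay above all 1 h libraries of the same training, at 0.598 to 0.621% against 0.536 to 0.578% for threat, and 0.587 to 0.618% against 0.554 to 0.583% for place. Naive replicates 5 to 9 held 0.571 to 0.619% and replicates 1 to 4 held 0.551 to 0.574%, so the naive range reached into that of the 24 h groups.

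**Figure D2:**
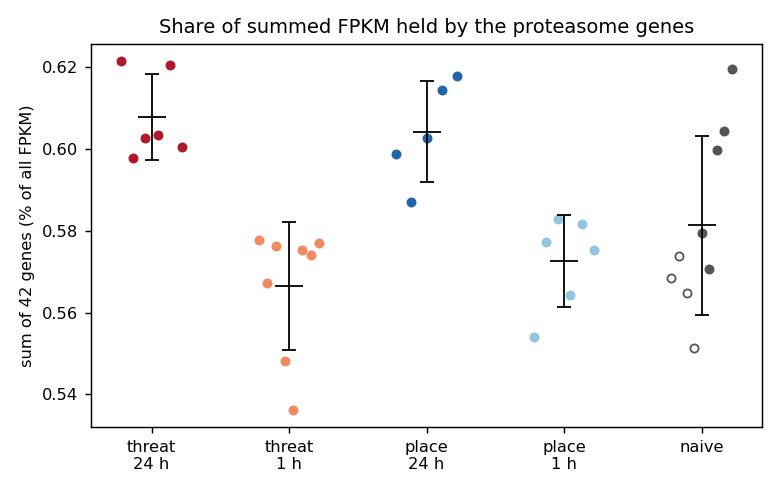
Share of all FPKM held by the 42 genes, in percent, with 1 point per library, and mean ± SD as bars. Open naive points are replicates 1 to 4. The vertical axis does not start at 0. Threat 24 h libraries lie at 0.598% or above and threat 1 h libraries at 0.578% or below.

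At 24 h, many core and regulatory particle genes were higher than at 1 h after both kinds of training, by log2 fold changes of 0.10 to 0.35 where called. In threat 24 h against threat 1 h, 21 of the 42 members were called higher and 1 lower (limma, Benjamini-Hochberg adjusted p under 0.05), where 12.5% of all 13153 genes tested were called higher and 16.8% lower. The members' median log2 fold change was 0.11, against -0.01 over all genes. In place 24 h against place 1 h, 14 members were called higher and 0 lower, where 6.61% of all genes were called higher and 6.64% lower, with medians of 0.11 and 0.01. The 24 h libraries lay wholly above the 1 h ones for 12 members after threat and 7 after place, where 4.05% and 4.11% of all genes did so. The count of 14 for place was 9, 8 or 4 without place 24 h replicate 3, 4 or 5, and 7 without place 1 h replicate 1 or 4.

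The calls were spread over the particle. In threat 24 h against 1 h they took in 4 of 8 alpha subunits, 2 of 4 structural beta subunits, 2 of 3 standard catalytic subunits, 3 of 6 ATPases, 2 of 3 other base subunits, 5 of 8 lid subunits and 2 of 3 base chaperones, and Psmc3ip. In place 24 h against 1 h the counts were 2, 3, 2, 1, 1, 3 and 2 in the same order. None of the 3 inducible subunits was called in either comparison. Psma6, Psma2, Psmb1, Psmb3, Psmb5 and Psmb7 were called higher in both of these and also in both comparisons of 24 h groups with naive, which share the naive libraries.

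**Figure D3:**
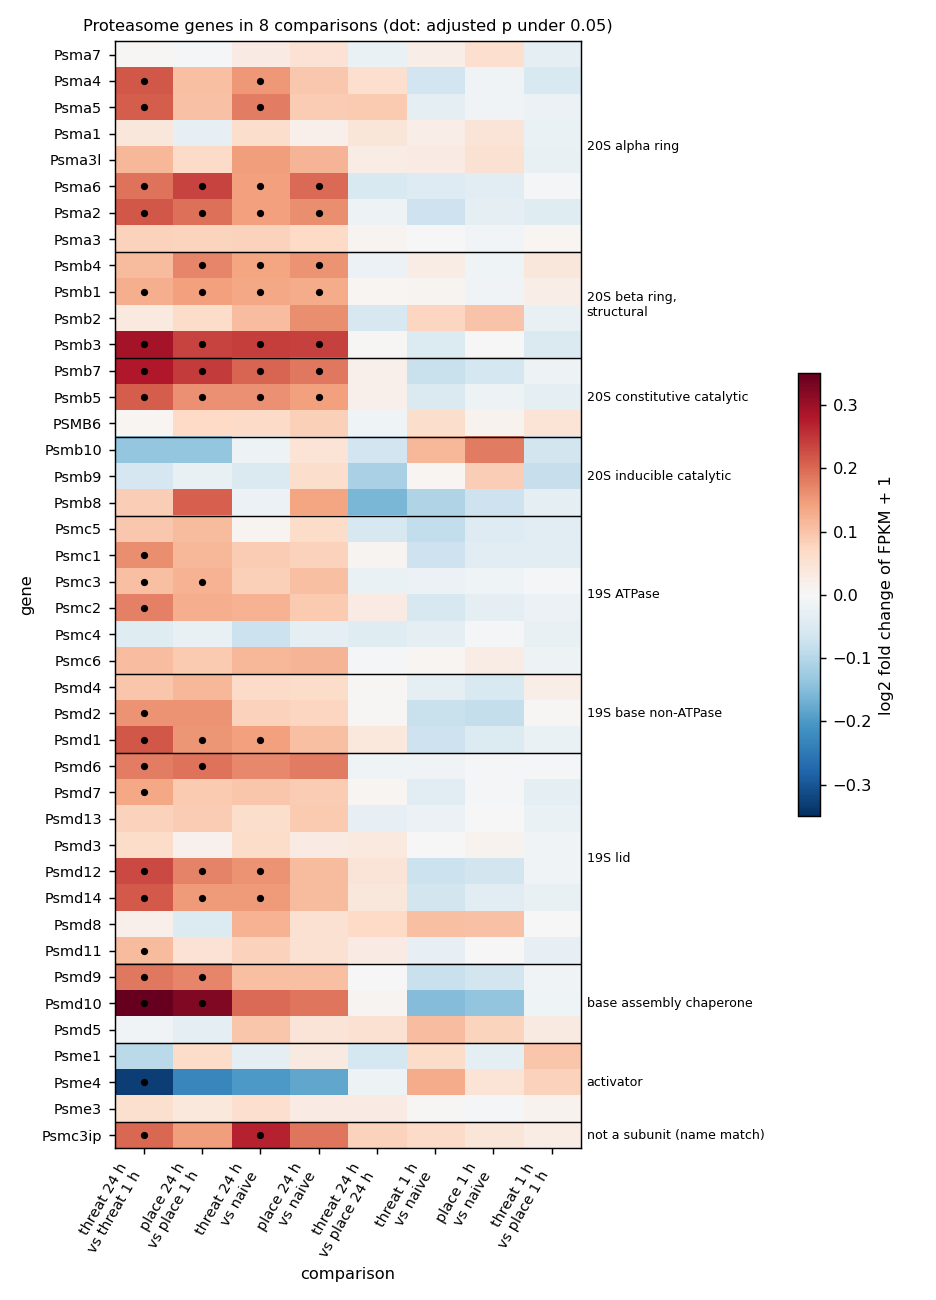
Log2 fold change of FPKM + 1 (colour) of each of the 42 genes (rows, by place in the particle) in 8 comparisons (columns), with a dot where the limma adjusted p was under 0.05. The dots lie in the 4 leftmost columns, with 22, 14, 13 and 7 of them, and the other 4 columns have 0.

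Promoters of these 6 genes are shown because the genes were called together. They are RefSeq sequences of build GRCr8, from 250 bases before to 50 after the start, written 5′ to 3′ on the gene's strand. Capitals mark CCAAT (the core bound by NF-Y) or TGACNNNGC (a core bound by NFE2L1 and NFE2L2 with small MAF proteins), searched on both strands, so that a CCAAT on the other strand reads ATTGG.
Psma2: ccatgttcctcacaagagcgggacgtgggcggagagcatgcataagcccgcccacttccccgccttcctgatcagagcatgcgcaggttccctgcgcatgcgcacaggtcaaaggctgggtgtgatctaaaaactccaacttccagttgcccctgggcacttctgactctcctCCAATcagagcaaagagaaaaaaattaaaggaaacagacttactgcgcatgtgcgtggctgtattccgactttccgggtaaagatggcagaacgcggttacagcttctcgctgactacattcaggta
Psma6: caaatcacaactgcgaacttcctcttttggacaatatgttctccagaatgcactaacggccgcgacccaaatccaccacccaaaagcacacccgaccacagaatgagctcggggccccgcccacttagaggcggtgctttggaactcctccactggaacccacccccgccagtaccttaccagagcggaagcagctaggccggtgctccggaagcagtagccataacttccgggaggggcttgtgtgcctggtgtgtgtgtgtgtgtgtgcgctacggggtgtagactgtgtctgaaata
Psmb1: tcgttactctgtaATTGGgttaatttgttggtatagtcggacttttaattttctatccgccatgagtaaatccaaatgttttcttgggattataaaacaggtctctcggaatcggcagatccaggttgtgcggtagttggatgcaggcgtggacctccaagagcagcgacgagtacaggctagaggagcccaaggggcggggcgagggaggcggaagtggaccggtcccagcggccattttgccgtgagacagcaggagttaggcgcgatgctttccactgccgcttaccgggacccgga
Psmb3: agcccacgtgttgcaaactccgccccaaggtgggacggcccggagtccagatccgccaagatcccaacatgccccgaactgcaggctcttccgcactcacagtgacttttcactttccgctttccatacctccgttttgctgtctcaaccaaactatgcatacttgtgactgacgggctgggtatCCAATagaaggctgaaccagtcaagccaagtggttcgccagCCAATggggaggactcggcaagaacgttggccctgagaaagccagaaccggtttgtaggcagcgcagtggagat
Psmb5: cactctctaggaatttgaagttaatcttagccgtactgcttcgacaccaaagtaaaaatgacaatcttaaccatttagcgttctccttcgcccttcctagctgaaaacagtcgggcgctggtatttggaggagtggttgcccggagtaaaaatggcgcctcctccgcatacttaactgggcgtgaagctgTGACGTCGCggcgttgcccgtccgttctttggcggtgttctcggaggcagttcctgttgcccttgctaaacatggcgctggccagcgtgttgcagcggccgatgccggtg
Psmb7: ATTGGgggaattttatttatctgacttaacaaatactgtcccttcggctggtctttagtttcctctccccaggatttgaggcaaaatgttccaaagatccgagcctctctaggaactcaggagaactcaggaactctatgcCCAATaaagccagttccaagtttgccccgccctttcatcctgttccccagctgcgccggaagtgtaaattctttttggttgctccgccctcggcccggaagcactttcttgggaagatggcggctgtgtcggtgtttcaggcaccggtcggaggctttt

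CCAAT occurred in Psma2 and Psmb1 at 1 place each and in Psmb3 and Psmb7 at 2 places each, TGACNNNGC occurred once in Psmb5, and Psma6 held neither. Of the 35 members matched to a RefSeq promoter, 19 (54.3%) held CCAAT, against 37.5% of all 33469 promoters, and 7 (20%) held TGACNNNGC, against 12.1%. In 1 member matches of the motifs overlapped. Member promoters were also richer in CpG, with a median of 20 per 300 bases, against 7 over all promoters. Not matched were PSMB6, Psma3l, Psmd10, Psmd6, Psmd12, Psmd14 and Psma7. A match is a description of the letters only.

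Psmb7 encodes the trypsin-like subunit (rn5 chromosome 3, 28115650 to 28176238, minus strand). Psmb7 read 89.7, 93.2 and 95.7 FPKM (lowest, median, highest) in threat 24 h libraries, against 67.2, 77.8 and 84.3 in threat 1 h libraries. Psmb7 had 88.5, 92.003, 94.7, 90.6 and 94.7 FPKM in the 5 place 24 h libraries, against 71.7, 77.9 and 81.0 in place 1 h and 69.3, 81.2 and 94.8 in naive libraries. All threat 24 h libraries were above all threat 1 h libraries, and all place 24 h libraries above all place 1 h libraries, but both overlapped the naive ones. In limma's fit the log2 fold changes, here and below with their SE, were 0.28 ± 0.05 (adjusted p = 0.000223) for threat 24 h against 1 h and 0.25 ± 0.06 (adjusted p = 0.00689) for place. Against naive they were 0.20 ± 0.05 (adjusted p = 0.0123) for threat 24 h and 0.19 ± 0.06 (adjusted p = 0.0437) for place 24 h. Psmb5, the chymotrypsin-like subunit, lies on chromosome 15 (37143059 to 37147105, minus strand). Psmb5 read 76.8, 85.7 and 87.4 FPKM (lowest, median, highest) in threat 24 h libraries, against 65.5, 72.5 and 74.1 in threat 1 h libraries. Psmb5 had 80.7, 77.7, 82.0, 84.5 and 86.1 FPKM in the 5 place 24 h libraries, against 69.8, 73.5 and 78.3 in place 1 h and 67.2, 74.0 and 83.7 in naive libraries. Its threat groups did not overlap, whereas its place groups did. It differed by 0.21 ± 0.04 (adjusted p = 0.000349) for threat 24 h against 1 h and 0.16 ± 0.05 (adjusted p = 0.0226) for place.

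PSMB6, the row for the caspase-like subunit that may share reads with a near copy, had no call. PSMB6 read 45.9, 47.1 and 48.5 FPKM (lowest, median, highest) in threat 24 h libraries, against 42.7, 47.3 and 51.9 in threat 1 h libraries. PSMB6 had 42.7, 48.7, 45.8, 52.0 and 49.1 FPKM in the 5 place 24 h libraries, against 42.4, 46.4 and 47.1 in place 1 h and 40.3, 45.7 and 50.7 in naive libraries. Its groups overlapped throughout, and its lowest adjusted p was 0.343 (limma, place 24 h against naive). The structural subunit Psmb3 (chromosome 10, 85437464 to 85444560) had the largest log2 fold change of the beta subunits after threat. Psmb3 read 28.9, 29.2 and 32.2 FPKM (lowest, median, highest) in threat 24 h libraries, against 22.1, 23.9 and 26.5 in threat 1 h libraries. Psmb3 had 27.2, 27.6, 30.9, 30.1 and 32.5 FPKM in the 5 place 24 h libraries, against 23.7, 24.9 and 26.6 in place 1 h and 21.1, 25.4 and 29.4 in naive libraries. Neither its threat nor its place groups overlapped between the times. The differences were 0.29 ± 0.06 (adjusted p = 0.000576) for threat 24 h against 1 h and 0.24 ± 0.07 (adjusted p = 0.0189) for place.

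Psmb1 (chromosome 1, 58398991 to 58418276, minus strand), another structural beta subunit, differed by 0.13 ± 0.04 (adjusted p = 0.0118) for threat 24 h against 1 h and 0.14 ± 0.04 (adjusted p = 0.0228) for place. Its threat 24 h libraries lay at 77.3 to 84.6 FPKM and threat 1 h libraries at 71.1 to 77.9. Psmb4 read 85.0, 88.3 and 95.8 FPKM (lowest, median, highest) in threat 24 h and 77.0, 82.4 and 87.4 in threat 1 h libraries, 81.7, 87.4, 93.5, 95.2 and 96.0 in the 5 place 24 h libraries, 75.1, 80.8 and 84.3 in place 1 h and 72.3, 81.4 and 92.9 in naive libraries. Psmb4 was called in place 24 h against 1 h, by 0.17 ± 0.05 (adjusted p = 0.0256), and not in threat 24 h against 1 h.

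**Figure D4:**
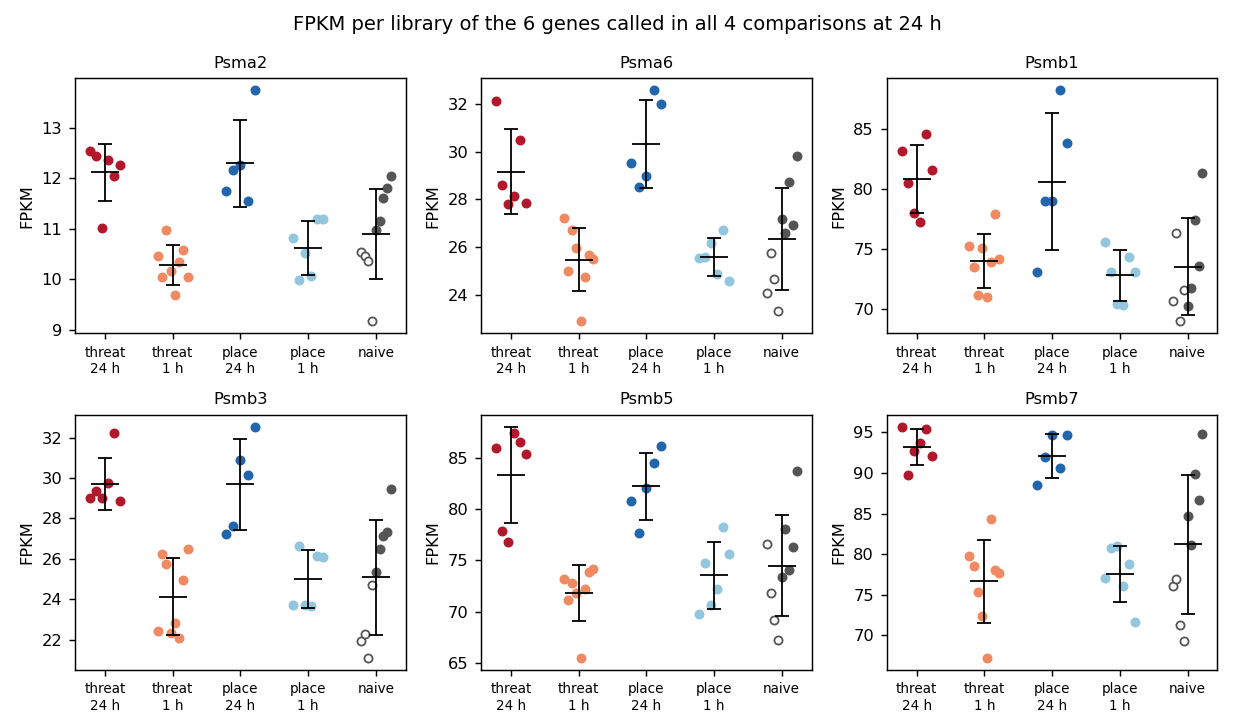
FPKM per library of Psma2, Psma6, Psmb1, Psmb3, Psmb5 and Psmb7, with mean ± SD as bars; axes do not start at 0. Open naive points are replicates 1 to 4. Psmb7 lies at 89.7 FPKM or above in threat 24 h libraries and at 84.3 or below in threat 1 h libraries, while naive libraries span 69.3 to 94.8.

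In the alpha ring, Psma6 (chromosome 6, 85725314 to 85742471) and Psma2 (chromosome 17, 50789084 to 50802098, minus strand) were called in both time comparisons. Psma6 read 27.8, 28.4 and 32.1 FPKM (lowest, median, highest) in threat 24 h libraries, against 22.9, 25.6 and 27.2 in threat 1 h libraries. Psma6 had 29.5, 28.5, 29.01, 32.6 and 32.0 FPKM in the 5 place 24 h libraries, against 24.6, 25.6 and 26.7 in place 1 h and 23.3, 26.6 and 29.8 in naive libraries. The 24 h groups of Psma6 lay above the 1 h groups of the same training, with 0.19 ± 0.05 (adjusted p = 0.00302) for threat and 0.24 ± 0.05 (adjusted p = 0.00395) for place. Psma2 read 11.02, 12.3 and 12.5 FPKM (lowest, median, highest) in threat 24 h libraries, against 9.69, 10.2 and 10.98 in threat 1 h libraries. Psma2 had 11.7, 12.2, 12.3, 11.6 and 13.7 FPKM in the 5 place 24 h libraries, against 9.97, 10.7 and 11.2 in place 1 h and 9.16, 10.97 and 12.1 in naive libraries. Psma2 also did not overlap between times, with 0.22 ± 0.05 (adjusted p = 0.00065) for threat and 0.19 ± 0.05 (adjusted p = 0.0121) for place.

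Psma4 and Psma5 were called for threat 24 h against 1 h and missed the threshold for place. Psma4 read 46.6, 48.5 and 52.9 FPKM (lowest, median, highest) in threat 24 h libraries, against 38.7, 41.8 and 47.0 in threat 1 h libraries. Psma4 had 46.3, 45.7, 46.1, 46.6 and 49.95 FPKM in the 5 place 24 h libraries, against 38.9, 44.4 and 45.4 in place 1 h and 39.1, 44.0 and 47.8 in naive libraries. Only 1 threat 1 h library reached into the threat 24 h range, and the place groups did not overlap. The difference was 0.22 ± 0.04 (adjusted p = 0.000428), with 0.11 ± 0.05 (adjusted p = 0.155) for place. Psma5 read 44.0, 45.2 and 47.9 FPKM (lowest, median, highest) in threat 24 h libraries, against 36.4, 39.3 and 41.4 in threat 1 h libraries. Psma5 had 40.7, 43.6, 43.0, 42.8 and 43.9 FPKM in the 5 place 24 h libraries, against 38.1, 40.0 and 42.1 in place 1 h and 33.8, 41.0 and 45.5 in naive libraries. Its threat groups were apart, with 0.21 ± 0.04 (adjusted p = 0.000512), and the place difference was 0.10 ± 0.05 (adjusted p = 0.17). Psma7 read 68.4, 72.5 and 77.7 FPKM (lowest, median, highest) in threat 24 h and 68.5, 72.3 and 74.9 in threat 1 h libraries, 72.7, 73.2, 71.2, 76.0 and 73.6 in the 5 place 24 h libraries, 68.8, 73.7 and 78.6 in place 1 h and 66.5, 69.8 and 74.8 in naive libraries. Psma7, the most abundant alpha subunit, overlapped throughout and was not called. Psma3 read 9.69, 10.2 and 11.1 FPKM (lowest, median, highest) in threat 24 h and 8.36, 9.87 and 10.7 in threat 1 h libraries, 10.3, 10.2, 10.5, 10.3 and 9.76 in the 5 place 24 h libraries, 8.99, 9.70 and 10.1 in place 1 h and 8.67, 9.43 and 11.2 in naive libraries. No comparison called Psma3.

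In the lid, Psmd14, the enzyme that cuts the ubiquitin chain off the substrate, had the lowest p of the members over the 8 comparisons of training and naive groups (chromosome 3, 54249938 to 54344885). Psmd14 read 33.2, 33.7 and 35.4 FPKM (lowest, median, highest) in threat 24 h libraries, against 26.2, 29.3 and 30.6 in threat 1 h libraries. Psmd14 had 32.5, 32.8, 31.6, 32.2 and 36.1 FPKM in the 5 place 24 h libraries, against 28.6, 29.1 and 32.8 in place 1 h and 26.3, 31.0 and 32.4 in naive libraries. The threat groups did not overlap and the place groups did. It differed by 0.21 ± 0.04 (adjusted p = 0.000206) for threat 24 h against 1 h and 0.15 ± 0.05 (adjusted p = 0.0254) for place. Psmd12 read 40.2, 41.2 and 45.2 FPKM (lowest, median, highest) in threat 24 h libraries, against 32.5, 35.4 and 38.2 in threat 1 h libraries. Psmd12 had 39.0, 39.6, 39.8, 41.3 and 42.1 FPKM in the 5 place 24 h libraries, against 33.3, 34.999 and 39.1 in place 1 h and 33.4, 36.8 and 42.3 in naive libraries. Psmd12, a lid scaffold, differed by 0.23 ± 0.05 (adjusted p = 0.000568) for threat, with groups apart, and 0.17 ± 0.05 (adjusted p = 0.0293) for place. Psmd6 read 46.4, 49.1 and 54.8 FPKM (lowest, median, highest) in threat 24 h and 40.3, 43.5 and 49.0 in threat 1 h libraries, 51.1, 47.4, 49.95, 51.1 and 53.1 in the 5 place 24 h libraries, 40.8, 43.3 and 50.6 in place 1 h and 36.4, 43.8 and 51.2 in naive libraries. Psmd6, the highest lid member, was called at 0.18 (limma adjusted p = 0.0195) for threat and 0.19 (0.0489) for place. Psmd11 read 18.7, 19.3 and 21.2 FPKM (lowest, median, highest) in threat 24 h and 16.3, 18.2 and 19.3 in threat 1 h libraries, 19.7, 18.7, 18.5, 19.1 and 19.8 in the 5 place 24 h libraries, 17.4, 18.6 and 19.3 in place 1 h and 16.2, 18.6 and 20.4 in naive libraries. Psmd11, the lowest, was called for threat at 0.11 (0.0411). Psmd7 was called for threat at 0.13 (0.00401), while Psmd3, Psmd8 and Psmd13 were not called.

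In the base, the scaffold Psmd1 gave 0.22 ± 0.05 (adjusted p = 0.000698) for threat 24 h against 1 h and 0.16 ± 0.05 (adjusted p = 0.0424) for place. Psmd1 read 37.3, 38.7 and 41.4 FPKM (lowest, median, highest) in threat 24 h libraries, against 30.4, 33.8 and 34.4 in threat 1 h libraries. Psmd1 had 38.6, 38.4, 37.0, 37.1 and 38.3 FPKM in the 5 place 24 h libraries, against 31.2, 33.5 and 38.3 in place 1 h and 30.9, 34.9 and 38.9 in naive libraries. Its threat groups were apart, and its place groups overlapped. Psmd2 was called for threat at 0.16 ± 0.05 (adjusted p = 0.014). The ubiquitin receptor Psmd4 was not called. Psmd4 read 53.8, 57.0 and 58.3 FPKM (lowest, median, highest) in threat 24 h and 49.1, 51.9 and 56.8 in threat 1 h libraries, 54.4, 54.2, 55.0, 59.5 and 58.0 in the 5 place 24 h libraries, 47.9, 51.2 and 56.2 in place 1 h and 51.4, 53.2 and 56.4 in naive libraries. Of the ATPases, Psmc1, Psmc2 and Psmc3 were called for threat, at 0.16, 0.18 and 0.10 (limma adjusted p = 0.00401, 0.00302 and 0.018), and Psmc3 for place at 0.12 (0.0284). Psmc5 read 98.5, 108 and 115 FPKM (lowest, median, highest) in threat 24 h and 86.4, 102 and 111 in threat 1 h libraries, 108, 109, 112, 122 and 108 in the 5 place 24 h libraries, 99.1, 101 and 109.8 in place 1 h and 101, 105 and 114 in naive libraries. Psmc6 read 21.4, 22.8 and 23.6 FPKM (lowest, median, highest) in threat 24 h and 18.7, 21.3 and 22.1 in threat 1 h libraries, 22.8, 22.6, 22.6, 22.6 and 23.0 in the 5 place 24 h libraries, 19.8, 20.9 and 23.3 in place 1 h and 17.8, 20.7 and 23.2 in naive libraries. Neither Psmc5 nor Psmc6, the highest and lowest ATPases, was called, and Psmc4 had a value of -0.04 for threat.

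The base chaperones Psmd9 and Psmd10 were called in both time comparisons and Psmd5 in neither. Psmd9 read 16.5, 18.8 and 19.8 FPKM (lowest, median, highest) in threat 24 h and 14.6, 16.4 and 18.0 in threat 1 h libraries, 17.8, 17.7, 18.6, 19.8 and 19.1 in the 5 place 24 h libraries, 15.9, 16.1 and 17.7 in place 1 h and 15.8, 17.3 and 18.3 in naive libraries. Psmd9 differed by 0.18 ± 0.04 (adjusted p = 0.00142) for threat and 0.17 ± 0.05 (adjusted p = 0.015) for place. The Psmd10 (gankyrin) row had the largest differences among members between times, 0.35 ± 0.09 (adjusted p = 0.00505) for threat and 0.33 ± 0.10 (adjusted p = 0.035) for place. Its means were 11.6 ± 1.44 FPKM in threat 24 h and 8.92 ± 1.02 in threat 1 h libraries (SD, n = 6 and 8). As said above, RefSeq places Psmd10 on another chromosome than this row. The row also differed by 0.39 between naive replicates 5 to 9 and 1 to 4. Threat 24 h differed by 0.41 from replicates 1 to 4 alone and by 0.02 from 5 to 9 alone (limma adjusted p = 0.000935 and 0.947). Psmd5 read 8.42, 9.48 and 9.60 FPKM (lowest, median, highest) in threat 24 h and 8.42, 9.15 and 10.4 in threat 1 h libraries, 9.17, 9.09, 8.25, 8.14 and 9.37 in the 5 place 24 h libraries, 8.52, 9.0001 and 9.64 in place 1 h and 7.87, 8.61 and 9.37 in naive libraries. Psmd5 overlapped in all groups.

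None of the inducible subunits was called in any of the 8 comparisons. Psmb8 read 1.58, 2.10 and 2.18 FPKM (lowest, median, highest) in threat 24 h and 1.55, 1.79 and 1.99 in threat 1 h libraries, 2.42, 2.16, 1.94, 2.98 and 2.04 in the 5 place 24 h libraries, 1.26, 1.98 and 2.06 in place 1 h and 1.64, 1.95 and 2.51 in naive libraries. Psmb9 read 1.94, 2.03 and 4.17 FPKM (lowest, median, highest) in threat 24 h and 1.85, 2.38 and 3.03 in threat 1 h libraries, 2.74, 2.83, 2.02, 3.09 and 2.28 in the 5 place 24 h libraries, 2.28, 2.62 and 3.26 in place 1 h and 2.02, 2.40 and 2.91 in naive libraries. Psmb10 read 8.36, 9.23 and 10.4 FPKM (lowest, median, highest) in threat 24 h and 9.55, 10.2 and 11.7 in threat 1 h libraries, 7.92, 11.5, 9.40, 10.7 and 9.68 in the 5 place 24 h libraries, 9.97, 10.9 and 11.4 in place 1 h and 8.06, 9.22 and 12.5 in naive libraries. Their groups overlapped in each of these comparisons. Against naive replicates 5 to 9 alone, Psmb10 was called higher at 1 h in limma. The values were 0.26 (adjusted p = 0.0102) for place and 0.19 (adjusted p = 0.0296) for threat. Against replicates 1 to 4 alone Psmb10 was not called (0.09 and 0.02). As a percentage of its counterpart, Psmb10 was 9.99 ± 0.87% of Psmb7 in threat 24 h libraries, against 13.5 ± 0.829% in threat 1 h libraries (SD, n = 6 and 8). In place 24 h libraries it was 10.7 ± 1.45%, against 14.0 ± 1.02% in place 1 h libraries (n = 5 and 6) and 11.9 ± 2.69% in naive libraries (n = 9). These ratios were not tested, and include the change in Psmb7.

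Psme4, which encodes the nuclear activator PA200, was the only member called lower, in threat 24 h against 1 h by -0.33 ± 0.10 (adjusted p = 0.0152). Psme4 read 5.51, 6.14 and 6.51 FPKM (lowest, median, highest) in threat 24 h libraries, against 5.14, 8.26 and 9.34 in threat 1 h libraries. Psme4 had 6.37, 6.59, 5.50, 5.88 and 6.44 FPKM in the 5 place 24 h libraries, against 5.36, 7.89 and 8.48 in place 1 h and 5.71, 6.99 and 9.35 in naive libraries. The threat groups overlapped. Psme1 read 9.67, 11.6 and 13.4 FPKM (lowest, median, highest) in threat 24 h and 9.78, 12.6 and 13.9 in threat 1 h libraries, 11.3, 12.2, 11.1, 13.7 and 11.9 in the 5 place 24 h libraries, 9.91, 11.6 and 13.4 in place 1 h and 10.9, 11.6 and 14.2 in naive libraries. Psme3 read 5.70, 5.97 and 6.30 FPKM (lowest, median, highest) in threat 24 h and 5.45, 5.75 and 5.85 in threat 1 h libraries, 5.82, 5.64, 6.03, 5.68 and 6.06 in the 5 place 24 h libraries, 5.33, 5.71 and 5.92 in place 1 h and 5.20, 5.73 and 6.29 in naive libraries. Psme1 and Psme3, of the PA28 activators, were not called. The Psme3 row spans 74923 bases.

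Compared with naive libraries, 13 members were called higher in threat 24 h and 0 lower, where 4.32% of all genes were called higher and 5.77% lower. In place 24 h 7 were called higher and 0 lower, where 1.49% and 3.56% were. The members' median log2 fold changes were 0.10 and 0.09, against 0.01 and 0.02 over all genes. Both comparisons use the same naive libraries. Threat 24 h libraries lay wholly above naive ones for Psmd14 and Psmc3ip, 2 members, where 0.327% of all genes did. The threat calls were Psma2, Psma4, Psma5, Psma6, Psmb1, Psmb3, Psmb4, Psmb5, Psmb7, Psmd1, Psmd12, Psmd14 and Psmc3ip, and the place calls were Psma2, Psma6, Psmb1, Psmb3, Psmb4, Psmb5 and Psmb7.

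These calls depended on which libraries were used. The 13 threat calls were 8 or 6 without threat 24 h replicate 1 or 5, and 8, 8 or 7 without naive replicate 2, 3 or 4. The 7 place calls ranged from 0 (without place 24 h replicate 5) to 11 (without naive replicate 9). Against naive replicates 1 to 4 alone, 26 members were called higher in threat 24 h and 21 in place 24 h, where 15.1% and 12% of all genes were. Against replicates 5 to 9 alone, 1 (Psmc3ip) and 0 were, where 0.0684% and 0.0152% of all genes were. The members' medians stayed above 0 against replicates 5 to 9, at 0.06 for both, against 0.16 and 0.14 with replicates 1 to 4. The blocks themselves differed: 14 members were higher in naive 5 to 9 than in naive 1 to 4 and 0 lower, where 8.61% and 10.4% of all genes were, and 11 had all of replicates 5 to 9 above all of 1 to 4, where 7.69% of genes did. Psmb7 averaged 87.5 FPKM in replicates 5 to 9 and 73.4 in replicates 1 to 4.

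Genes higher in naive replicates 5 to 9 were often also higher at 24 h than at 1 h, comparisons that share no library. Of the members called higher in threat 24 h against 1 h, 12 of 21 (57.1%) were called higher in naive 5 to 9, and these were 85.7% of the 14. Over all genes the shares were 43.4% and 62.9%. For place the members' shares were 57.1% and 57.1%, and those of all genes 46.4% and 35.6%. What the naive blocks stand for was not tested, and whether the time after training or another difference between the libraries goes with the higher values cannot be told apart.

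At 1 h no member was called. In limma, 0 members differed between threat 1 h and naive, with 4 at an unadjusted p under 0.05, where 0.928% of all genes were called and 16.1% passed unadjusted. Place 1 h against naive gave 0 with 2 unadjusted, where 0.129% and 9.76% of genes were. The members' medians were -0.02 and -0.01. Against naive replicates 5 to 9 alone, 1 member (Psmb10) was higher and 10 lower in threat 1 h, and 1 (Psmb10) higher and 5 lower in place 1 h, where 12.7% and 7.06% of all genes were higher and 7.04% and 5.6% lower. Against replicates 1 to 4 alone, 0 were higher and 0 lower in each. There 0.205% and 0.0304% of all genes were higher and 0.0152% and 0.0076% lower. The members' medians were then 0.03 and 0.05, against -0.06 and -0.05 with replicates 5 to 9. Their sign thus depended on the block.

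No difference between threat and place was called at either time. In limma, 0 members were called in threat 24 h against place 24 h and 0 at an unadjusted p under 0.05, and 0 and 0 in threat 1 h against place 1 h, where 0% of all genes were called and 2.9% and 4.26% passed unadjusted. At 24 h the members' differences ran from -0.16 to 0.09 with a median of 0.01 and a median SE of 0.05, and 1 member (Psma5) had threat libraries all above place ones, where 0.19% of all genes did. The change of that difference between times was called for 0 members, with 0 unadjusted, where 0% of all genes were called and 2.74% passed unadjusted. Misses at this spread do not show that the trainings act alike.

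Genes that work with the proteasome were read from 5 lists, whose counts stand against 12.5% of all genes higher and 16.8% lower in threat 24 h against 1 h, and 6.61% and 6.64% in place 24 h against 1 h. Of 15 assembly and accessory genes tested, 5 were called higher and 0 lower in threat 24 h against 1 h, among them the core maturation factor Pomp (41.7 ± 1.72 FPKM in threat 24 h and 37.6 ± 1.79 in threat 1 h libraries, SD, n = 6 and 8), the deubiquitinases Uchl5 and Usp14 and the proteasome-bound thioredoxin Txnl1. In place 24 h against 1 h, Pomp and Uchl5 were called. Of 15 delivery genes, 6 were higher for threat and 4 for place, including the unfoldase Vcp at 0.16 in each. Of 21 ubiquitin genes, 7 were higher and 3 lower for threat, with the enzyme Usp5 at 0.26 and the ligase Ubr4 at -0.23, and 1 higher and 1 lower for place. The 3 lower of 21 are about the share of all genes. Of 14 regulators, 1 was higher and 3 lower for threat and 1 and 1 for place, and the heat shock factor Hsf1 was lower at -0.52 for threat and -0.39 for place. Nfe2l1, the transcription factor that drives proteasome genes, was not called in these 2 comparisons (0.06 and 0.12). Of 14 antigen presentation genes tested, Stat2 was lower for threat at -0.13 and 0 were called for place.

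Against naive, 4.32% of all genes were higher and 5.77% lower for threat 24 h, and 1.49% and 3.56% for place 24 h. In threat 24 h, 4 of the 15 assembly and accessory genes were higher (Pomp, Txnl1, Uchl5 and Zfand2a). Of the 21 ubiquitin genes, Ube2d3 was higher and Ubr4 lower, and of the 14 regulators Hsf1 was lower. In place 24 h, Pomp was higher and Ubr4 and Hsf1 lower in the same lists. The delivery and antigen presentation lists had 0 calls in either. Apart from Zfand2a, each of these genes was also called in the same direction in naive replicates 5 to 9 against 1 to 4. Against replicates 5 to 9 alone, 0 genes of the 5 lists were called in either comparison, with at most 2 genes of any list at an unadjusted p under 0.05 in limma. Against replicates 1 to 4 alone, 15.1% of all genes were higher in threat 24 h and 12% in place 24 h, with 14.5% and 11.8% lower. Of the 15 assembly genes 5 and 5 were higher, and of the 15 delivery genes 6 and 7, with 0 lower. Of the 21 ubiquitin genes 7 were higher and 3 lower for threat, and 7 and 2 for place. Of the 14 regulators 3 were higher and 3 lower in each, and Nfe2l1 was among the genes called in both. Nfe2l1 was also called in place 1 h against replicates 5 to 9 alone. There 3 of the 14 regulators were higher and 1 lower, where 7.06% and 5.6% of all genes were. Of the 14 antigen presentation genes 0 were called for threat and 1 was lower for place.

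Markers of other cells moved beside the members. Of 8 endothelial and mural markers, 5 were lower and 0 higher in threat 24 h against 1 h, where 16.8% of all genes were lower, with summed levels of 86.6 to 106 FPKM in threat 24 h and 100.3 to 136 in threat 1 h libraries. They were also lower for 4 of 8 in threat 24 h against naive (5.77% of all genes) and for 4 of 8 in naive 5 to 9 against 1 to 4 (10.4%), where the sums were 97.9 to 120 and 118 to 145 FPKM. Against naive replicates 1 to 4 alone, 5 of the 8 were lower in threat 24 h and 5 in place 24 h, where 14.5% and 11.8% of all genes were. Against replicates 5 to 9 alone 0 and 0 were, with 3 and 0 at an unadjusted p under 0.05, where 0.464% and 0.0684% of all genes were called lower. In place 24 h against 1 h 0 of the 8 were called, with 2 unadjusted and sums of 99.1 to 127 FPKM in place 24 h and 90.8 to 129 in place 1 h libraries. Other markers were called higher there, where 6.61% of all genes were. Both tested blood markers (Hbb and Hba2) were higher, with sums of 93.1 to 271 FPKM in place 24 h and 70.4 to 113 in place 1 h libraries. So were C1qa and P2ry12 of the 8 microglia markers. In threat 24 h against 1 h, C1qa of the 8 microglia markers and Nov of the 6 CA1 markers tested were higher, where 12.5% of all genes were. Mbp of the 7 oligodendrocyte markers and Aldh1l1 of the 5 astrocyte markers were lower, where 16.8% of all genes were. Calls of 1 gene per list are about the shares of all genes. The part of these markers in the member differences was not tested.

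Across the 34 libraries the members varied together as a group. Over the 861 pairs the median correlation of log2 values was 0.38, and 0.25 after the means of 6 groups (the trained groups and the 2 naive blocks) were taken out, against 0.01 over all genes tested. Psmd13 and Psma6 followed the median of the other members most closely after that step (0.82 and 0.81), while Psmb9, Psme1, Psme4 and Psmb10 lay below 0. All genes of a library share its depth and tissue composition, which differed between libraries. Their part in these correlations was not tested.

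Gene starts of the proteasome genes held little captured methylated DNA. Over the start bin and its neighbours (bins of 500 bases), the members' median was 0.0151 RPKM (reads scaled to bin length and library size) in captured libraries at 1 h, against 0.345 in input libraries. At 24 h it was 0.0605, against 0.26 in input libraries. Over all expressed genes the captured medians were 0.0269 at 1 h and 0.0632 at 24 h, so low capture at starts was not particular to the members. At 1 h 41 of 42 starts lay below their input (97.6%), where 83.3% of 12721 expressed genes did, and at 24 h 40 of 42 did (95.2%), where 81.0% did.

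**Figure D5:**
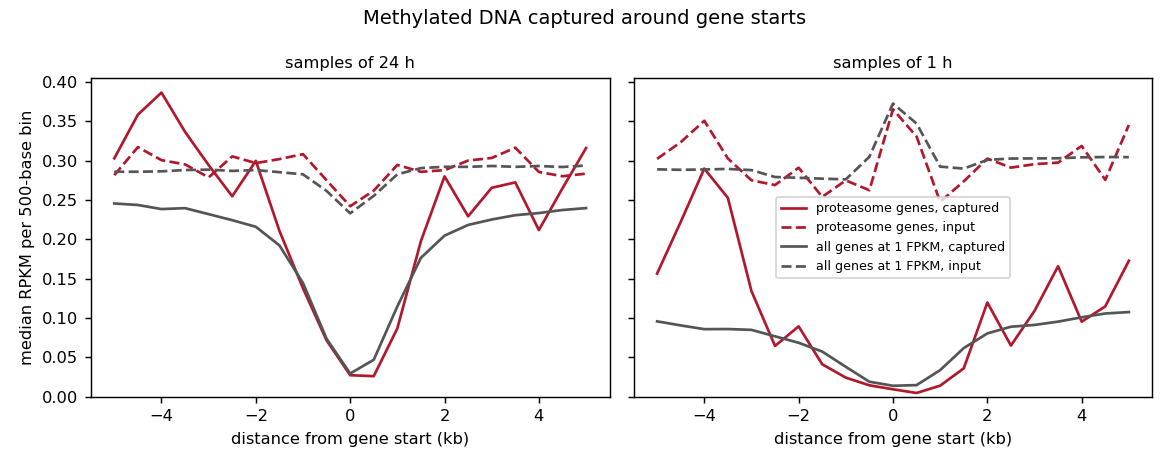
Median RPKM per bin of 500 bases around gene starts (distance in kb) in captured (solid) and input (dashed) libraries, for the 42 proteasome genes and all 12721 genes with a mean of at least 1 FPKM. Captured signal falls close to 0 at the start in both sets, far below input.

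At 24 h the starts above input were those of PSMB6 and Psma3l. The exception at 1 h was PSMB6 on chromosome 2, with 1.75 RPKM captured, against 0.364 in input, 4.82 times as much, while the start of the Psmb6 row on chromosome 10 had 0.0793, against 0.152. Promoters of the copies are shown with CpG in capitals.
Psmb6: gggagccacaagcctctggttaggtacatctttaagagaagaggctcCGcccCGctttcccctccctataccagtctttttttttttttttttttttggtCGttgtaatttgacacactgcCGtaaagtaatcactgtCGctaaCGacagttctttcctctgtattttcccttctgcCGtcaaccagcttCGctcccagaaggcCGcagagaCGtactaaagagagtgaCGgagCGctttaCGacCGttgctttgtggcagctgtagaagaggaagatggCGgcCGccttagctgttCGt
Psmb6l1: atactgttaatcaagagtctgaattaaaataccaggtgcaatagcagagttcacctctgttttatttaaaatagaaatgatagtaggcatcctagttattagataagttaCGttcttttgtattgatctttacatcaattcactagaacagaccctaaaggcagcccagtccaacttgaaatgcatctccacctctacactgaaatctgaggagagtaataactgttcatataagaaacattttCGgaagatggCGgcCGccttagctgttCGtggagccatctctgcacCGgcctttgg
The Psmb6 promoter holds 17 CpG and the Psmb6l1 one 6. Within these sequences the longest shared run is 29 bases, which starts at base 272 of the first and 246 of the second. It reaches base 300, the last printed base of Psmb6, so the full run may be longer. Whether the PSMB6 row and Psmb6l1 are one locus was not tested, since the builds differ. PSMB6 read 1.93 ± 0.34 RPKM in threat, 1.67 ± 0.347 in place and 1.69 ± 0.0931 in naive captured libraries at 1 h (SD, n = 3, 4 and 3).

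Few bins of these genes could be tested for a change in captured DNA. Of 1832 bins, 128 in 28 genes reached the limits (1 RPKM and 2 times input) at 1 h and 10 in 8 genes at 24 h. Over the whole genome, captured libraries held 41.8 to 55.3% of their reads in tested bins at 1 h and 9.08 to 12.6% at 24 h. The counts of bins at 1 h and 24 h therefore do not measure a change of methylation with time. In limma, 0 were called at 1 h for threat or place against naive or for threat against place, where 0.016%, 0.00285% and 0.0174% of 350378 bins were called. At an unadjusted p under 0.05 these comparisons had 13, 3 and 15 member bins, where 15.4%, 3.34% and 9.98% of all bins passed. At 24 h, 0 were called in threat against naive and place against naive, with 1 unadjusted each, where 0.0105% and 0.0082% of 85335 bins were called and 23.1% and 4.28% passed unadjusted.

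The 1 call was in threat against place at 24 h, where 7.7% of all bins were called and 37.1% passed unadjusted (2 of the 10 member bins). That share is as unstable as the call: 6566 bins were higher in threat and 4 lower, but 0 and 6 with median-ratio scaling. The number higher ran from 2 (without threat replicate 2) to 15286 (without place replicate 1), and was 10 without place replicate 3. The call lay in Psmb1, at chr1:58413001-58413500 (rn5), 5026 bases from its start within the gene span. The 3 threat libraries read 1.57, 1.43 and 1.25 RPKM, against 0.811, 0.944, 0.924 and 1.06 in the 4 place libraries, and the naive libraries read 1.28, 1.399 and 1.17. The threat and place libraries did not overlap, but threat and naive did. The difference was 0.49 ± 0.15 (log2 fold change ± SE, limma adjusted p = 0.0446), against a median of 0.28 over all bins and 0.23 over the 10 member bins. The call was lost with median-ratio scaling, with a filter of 0.5 RPKM, and without any 1 of threat replicates 1 and 2, place replicates 2, 3 and 4 and naive replicate 2. The lowest unadjusted p of all member bins belonged to Psmd14 (chr3:54255001-54255500) in threat against naive at 1 h, with 2.67, 2.77 and 2.20 RPKM in threat and 1.32, 1.57 and 1.51 in naive libraries (0.70 ± 0.18, limma adjusted p = 0.137).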

How the data were processed

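Members and lists were chosen with earlier results of these data known. The deposited RNA values are FPKM per gene, from directional polyA+ libraries per the labels. The authors' deposited methylated DNA values are RPKM per bin of 500 bases. They are whole multiples of 1 read (100% of values within 0.1 reads), which gave 31432723 to 39904534 reads per library at 1 h and 42175588 to 59548284 at 24 h. Tools listed in the submitters' processing notes, with no roles, are Bowtie, DESeq2, edgeR and TopHat 1.4.0, and the builds mm10 and rn5. Gene and bin positions follow rat rn5. RNA depth in reads is unknown.

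The RNA fit used limma 3.58.1 with trend (R 4.3.3) on log2(FPKM + 1) of the 13153 genes that reached 1 FPKM in 5 or more libraries. It had 5 group means, 29 residual degrees of freedom and Benjamini-Hochberg adjustment over all genes, with calls at 0.05. Fold changes on that scale understate low genes. Naive blocks were fitted as 6 groups. Bins with a captured mean of at least 1 RPKM and 2 times input were fitted by time on log2(RPKM + 0.25). Both fits were tested on simulated data. Alternatives were other pseudocounts, filters, scalings and library subsets, a replicate block and array weights. All members are named. Values per library go to the 10 with the lowest p, the catalytic subunits, the activators, and the highest and lowest of each part of the particle. Other lists give up to 4 genes per comparison.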

Additional observations from a re-analysis of the deposited data

Results flagged for a closer look

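In 16 of 145 groups of libraries checked, 1 library lay far from the rest for a gene described by library, where about 7.25 would do so by chance at 1 in 20. Psmd14 was set apart in 4 groups, with 36.1 FPKM in place 24 h replicate 5 (next 32.8), a low 26.2 in threat 1 h replicate 5 (next 29.1), 32.8 in place 1 h replicate 3 (next 29.8) and a low 26.3 in naive replicate 4 (next 29.8). Threat 1 h replicate 5 was also lowest for Psmb5 at 65.5 FPKM (next 71.1) and for Psmd1 at 30.4 (next 32.7). Psma4 was high in place 24 h replicate 5 at 49.95 FPKM (next 46.6) and low in place 1 h replicate 1 at 38.9 (next 43.1). In threat 24 h libraries, Psmd12 reached 45.2 FPKM in replicate 1 (next 41.8) and Psmb3 reached 32.2 in replicate 5 (next 29.8). Psma2 was lowest there in replicate 3 at 11.02 (next 12.1). The inducible subunit Psmb9 stood at 4.17 FPKM in threat 24 h replicate 6, where the next library had 2.13. Psmc5 reached 122 FPKM in place 24 h replicate 4 (next 112). Psmb8 was low in place 1 h replicate 5 at 1.26 FPKM (next 1.83). Psmb10 was high in naive replicate 4 at 12.5 FPKM (next 10.1), and Psme1 in naive replicate 5 at 14.2 (next 12.3).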

How the results depend on the processing

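The count of members called in threat 24 h against 1 h stayed at 18 to 26 under 9 settings and at 19 to 24 with 1 library left out, against 21 higher and 1 lower. Over the settings, the members' median log2 fold change at 24 h against 1 h ran from 0.09 to 0.13 for threat and 0.06 to 0.11 for place. Against naive it ran from 0.06 to 0.16 for threat 24 h and 0.05 to 0.14 for place 24 h. At 1 h its sign changed, with -0.06 to 0.03 for threat and -0.05 to 0.05 for place against naive. Counts against naive were the least stable. For threat 24 h against naive the count of 13 became 4 with quantile normalization, 1 with only the groups compared, 26 with naive 1 to 4 alone and 1 with naive 5 to 9 alone, and 6 to 17 with 1 library left out. For place 24 h against naive the count of 7 became 4 with no filter, 3 with median-ratio scaling, 1 with quantile normalization, 0 with only the groups compared, 21 with naive 1 to 4 alone, 0 with naive 5 to 9 alone and 3 without the choroid-rich threat 1 h libraries, and 0 to 11 with 1 library left out. For place 24 h against 1 h the count of 14 became 7 with quantile normalization, 23 with array weights, and 4 to 15 with 1 library left out. At 1 h, naive 5 to 9 alone gave 11 for threat and 6 for place, where all naive libraries gave 0 and naive 1 to 4 alone also gave 0. A replicate block gave 23 for threat 24 h and 12 for place 24 h against naive, but replicate numbers did not pair the libraries: same-numbered libraries correlated at -0.50 to 0.59 (median -0.04, 58 pairs), and 5 of 34 libraries correlated best with their own number. The single methylation call, threat against place at 24 h, became 0 with a filter of 0.5 RPKM and with median-ratio scaling, and 0 to 2 with 1 library left out. Threat against naive at 1 h gave 0 to 2. A filter of 2 RPKM left no member bins at 24 h, and the planned count test on reads recovered from RPKM is not reported. The cause of these moves was not tested. With 5 to 9 libraries per group, differences far below the 0.10 log2 scale of the smallest calls could not be detected. Larger ones could be missed too. Psmb8, at 0.21 in place 24 h against 1 h, was not called (limma adjusted p = 0.093).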
